A study of Mus musculus with 5 samples.

Results

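The kainate receptor family of the mouse brain was described here through 7 genes of 47729 in the count table: the 5 subunit genes Grik1, Grik2, Grik3, Grik4 and Grik5 and the 2 auxiliary genes Neto1 and Neto2. The genes were taken by name as the members of this family, with no measured value in the rule, and all 7 were found by their Ensembl IDs. The mice were C57BL/6 males aged 5 months, from an inbred strain, and RNA of the right hemisphere of the brain was read, with no treatment named in the labels. All 5 libraries belong to 1 group, so genes were compared with each other within a brain and samples with each other, and no condition was compared with another. The samples are called animals 1 to 5 in accession order. The labels do not state that each is a separate animal, so the p-values speak of the spread among these 5 libraries, part or all of which may be technical.

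Kainate receptors are glutamate-gated cation channels built of 4 subunits, and they act on both sides of the synapse. The low-affinity subunits GluK1 to GluK3, encoded by Grik1, Grik2 and Grik3, can form channels on their own. The high-affinity subunits GluK4 and GluK5, encoded by Grik4 and Grik5, need a low-affinity partner to make a working channel. Neto1 and Neto2 are single-pass membrane proteins that bind the receptor and slow its desensitization and deactivation. In the brain these receptors are best known from the mossy fibre synapse of the hippocampus, from interneurons and from seizures caused by kainate.

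A short stretch of the coding sequence allows the subunits to be compared and holds a position where RNA editing is known to act. The stretch lies at the mouth of the selectivity filter, and its codon for glutamine can be read as arginine in Grik1 and Grik2 RNA after editing of the middle base (the Q/R site), which lowers calcium permeability. The sequences are from GENCODE M21 transcripts on GRCm38, 5′ to 3′ on the coding strand, 51 bases each, with the codon of the Q/R position in capitals.
Grik1: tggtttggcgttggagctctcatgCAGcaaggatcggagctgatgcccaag
Grik2: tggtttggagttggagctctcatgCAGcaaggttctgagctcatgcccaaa
Grik3: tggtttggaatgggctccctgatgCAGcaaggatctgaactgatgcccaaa
Grik4: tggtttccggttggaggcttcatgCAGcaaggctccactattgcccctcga
Grik5: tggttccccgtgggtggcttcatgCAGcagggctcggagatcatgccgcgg

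The position was found by searching the translated transcripts for a glutamine ahead of a conserved motif, so a glutamine codon was given by the search. All 5 genes carry the codon CAG there in the genome. It lies at chromosome 16, 87940542 to 87940544 in Grik1 (exon 12 of 17) and at chromosome 10, 49244329 to 49244331 in Grik2 (exon 13 of 17). The same codon is at chromosome 4, 125691207 to 125691209 in Grik3, at chromosome 9, 42547623 to 42547625 in Grik4 and at chromosome 7, 25022497 to 25022499 in Grik5. Grik1 and Grik2 shared 46 of the 51 bases (90.2%), and Grik3 shared 42 with Grik2 (82.4%). Grik4 and Grik5 shared 36 bases with each other (70.6%), but Grik1 and Grik5 also shared 36, and Grik2 and Grik5 shared 34 (66.7%). Grik3 and Grik4 shared 28 (54.9%), the fewest of the 10 pairs. Gene counts do not show whether this base was edited.

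The subunit RNAs differed in level by several-fold, in nearly the same order in every brain. Levels are given as RPKM, the count divided by gene length in kilobases and by library total, and values after ± are the SD over 5 animals. Library depth was 13184234 to 15570064 counts.

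Grik5 (ENSMUSG00000003378, GRCm38 chromosome 7, 25009849 to 25072346, minus strand), the high-affinity subunit found most widely in the brain, had the highest level of the family. It stood at 45.2, 40.9, 42.3, 40.4 and 43.5 RPKM in animals 1 to 5, a mean of 42.5 ± 1.96. This level exceeded that of 96.0% of the 28276 genes with at least 1 count. Grik4 (ENSMUSG00000032017, chromosome 9, 42518135 to 42944493, minus strand), the other high-affinity subunit, known from the CA3 field and dentate gyrus of the hippocampus, stood at 6.57, 6.89, 6.52, 6.15 and 6.18 RPKM (6.46 ± 0.303). The lowest Grik5 value was far above the highest Grik4 value, and Grik5 exceeded Grik4 by 6.49-fold within an animal (log2 ratio 2.70 ± 0.093).

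Among the low-affinity subunits Grik3 was highest and Grik1 lowest. Grik3 (ENSMUSG00000001985, chromosome 4, 125490700 to 125714173, plus strand), whose channels need high glutamate concentrations to open, stood at 16.2, 16.7, 14.9, 14.4 and 13.6 RPKM (15.2 ± 1.26). Grik2 (ENSMUSG00000056073, chromosome 10, 49094833 to 49788766, minus strand), a main subunit of mossy fibre and cerebellar granule cell receptors, had 8.71, 9.72, 9.04, 8.71 and 9.84 RPKM (9.20 ± 0.545). Grik1 (ENSMUSG00000022935, chromosome 16, 87895900 to 88290265, minus strand), known from interneurons of the hippocampus and amygdala, had 4.57, 5.95, 4.27, 4.85 and 5.34 RPKM (5.00 ± 0.666). The 3 sets of values did not overlap. Grik1 was also the gene with the fewest reads, 190 to 278 per library, so counting alone gives a coefficient of variation (CV, SD over mean) of 6.69%, against 13.3% observed. For Grik5, with 2961 to 3250 reads, counting gives 1.79% and 4.61% was observed.

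Both auxiliary genes were present at levels above those of most subunits. Neto1 (ENSMUSG00000050321, chromosome 18, 86394952 to 86506718, plus strand), which also associates with NMDA receptors, stood at 23.3, 22.0, 21.4, 22.4 and 24.3 RPKM (22.7 ± 1.14). Neto2 (ENSMUSG00000036902, chromosome 8, 85636588 to 85700924, minus strand), known from cerebellar granule cells and as a partner of the chloride exporter KCC2, stood at 15.8, 16.2, 16.4, 16.4 and 15.9 RPKM (16.1 ± 0.278). Every Neto1 value lay above every Neto2 value, and Neto1 exceeded Neto2 by 1.4-fold (log2 ratio 0.49 ± 0.093). The Neto2 values were the closest together of the family, with a CV of 1.72%, below the 2.78% that counting alone gives.

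**Figure D1:**
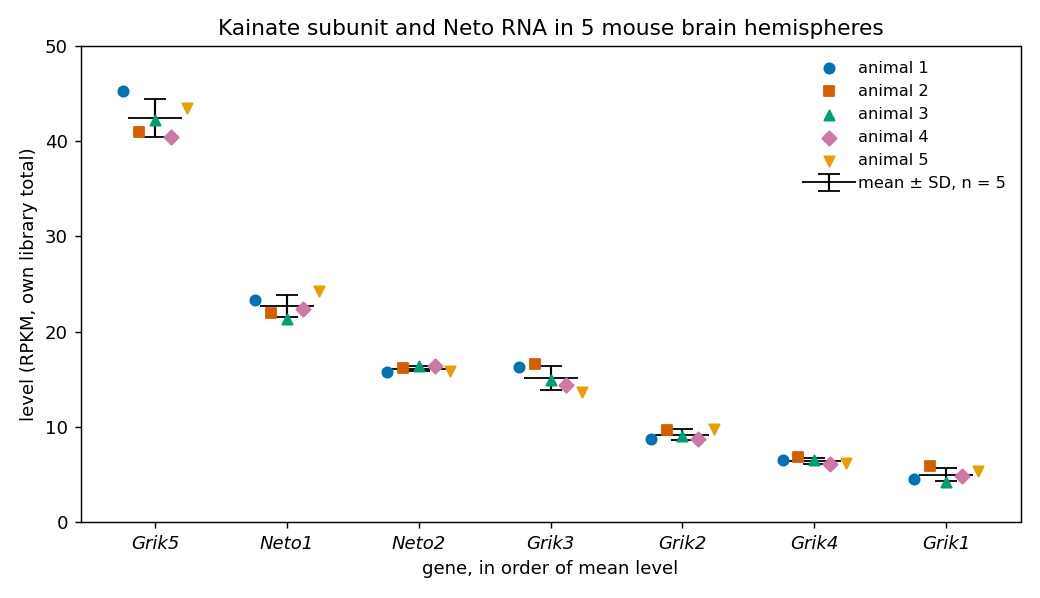
Level of each gene in RPKM on a linear axis, genes in order of their mean, 1 point per animal, with bars for the mean and SD (n = 5). Grik5 stands at 40.4 to 45.2, Grik1 at 4.27 to 5.95, and the values of Neto2 and Grik3 are the only neighbours that overlap.

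From high to low the order of means was Grik5, Neto1, Neto2, Grik3, Grik2, Grik4 and Grik1. Of the 6 pairs of neighbours in this order, 5 kept their order in all 5 animals without overlap of their values. The exception was Neto2 over Grik3 (1.07-fold, log2 ratio 0.092 ± 0.13), higher in 3 of 5 animals (exact two-sided sign-flip p = 0.25, adjusted over 21 pairs p = 0.25), so these genes did not differ beyond the spread. In animals 1 and 2 Grik3 was above Neto2, and in animals 3, 4 and 5 Neto2 was above Grik3. Grik4 over Grik1 was the narrowest of the pairs that kept their order, at 1.29-fold (log2 ratio 0.37 ± 0.18). In all, 20 of the 21 pairs of family genes (95.2%) had 1 order in all 5 animals, each with an exact sign-flip p of 0.063 (0.066 adjusted), the smallest p that 5 animals allow before adjustment. Over all 109069065 pairs of tested genes the share was 94.2%, so a fixed order is what most gene pairs in these brains show and is not particular to the family.

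The order of the middle genes depended on the gene length used. The length the authors divided by was 3137 bases for Grik1, 8272 for Grik2 and 3531 for Neto1, whereas the union of exons in GENCODE M21 is 6721, 13246 and 8352 bases. For Grik3, Grik4 and Grik5 both lengths were equal (8973, 5962 and 5168), and for Neto2 they were 5610 and 6129. With the exon union, Neto1 had 9.58 ± 0.482 RPKM and Neto2 14.8 ± 0.254, Grik2 5.75 ± 0.340 and Grik4 6.46 ± 0.303, so the order turned within both pairs. Grik1 had 2.33 ± 0.311. Neto1 then also lay below Grik3 (log2 ratio -0.65, against 0.58 with the authors' length). Grik5 was highest and Grik1 lowest with either length and also by counts alone, where Grik5 had 219 ± 10.1 and Grik1 15.7 ± 2.09 CPM (reads scaled by library total only). Which exons the counts cover is not given in the sources used here.

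**Figure D2:**
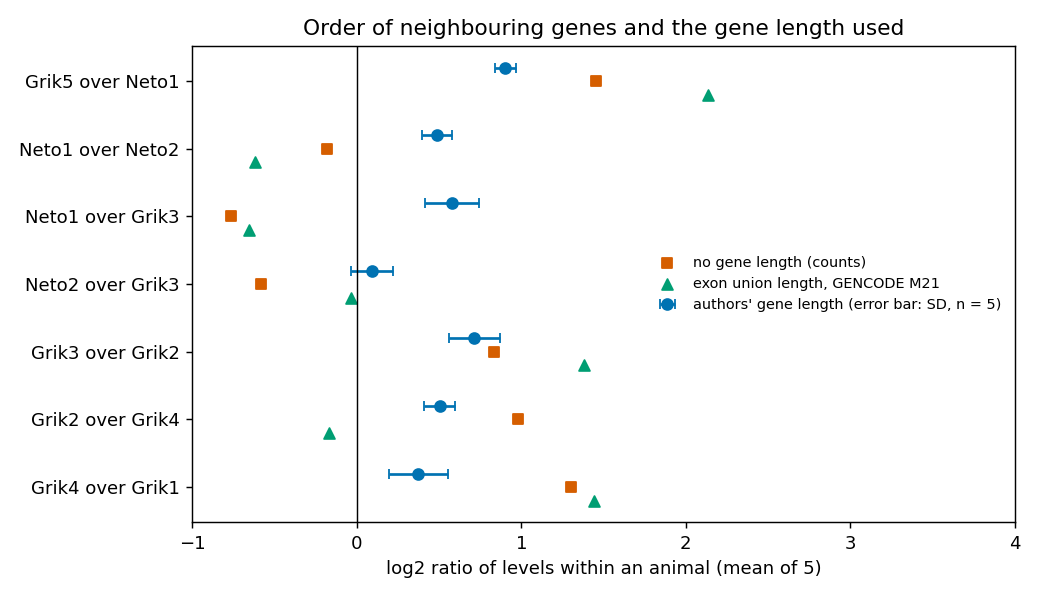
Mean log2 ratio of 7 pairs of genes within an animal, with the gene length of the authors (circles, bars for the SD, n = 5), without gene length (squares) and with the GENCODE M21 exon union (triangles); 0 means equal levels. Neto1 over Neto2 moves to -0.18 without length and to -0.62 with the exon union, and Grik5 over Neto1 stays above 0 throughout.

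Little sequence was shared in the same sense with other genes, and exons of 3 family genes overlapped those of another gene. Of the 50-base words of each gene's transcripts, at most 0.392% (Grik3) occur in the same sense in transcripts of other genes. Antisense matches were not searched. Exons of Neto1 overlap by 219 bases with the antisense gene AC113599.1, which is not a row of the count table, and without a stated strand setting the reads of such partners cannot be told apart, so its part in the Neto1 counts is not known. Exons of Grik4 overlap by 59 bases with Gm24420, which had 0 counts in all 5 libraries, and those of Neto2 by 20 bases with Mir8109, which had 1 count in animal 1 and 0 in the others.

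Per length, Grik5 alone accounted for more than the other 4 subunits together. Its share of the summed subunit RPKM was 54.2% ± 1.85, and it ran from 51.1% to 55.6%. Grik3 followed with 19.4% ± 1.26, Grik2 with 11.8% ± 0.682, Grik4 with 8.25% ± 0.287 and Grik1 with 6.38% ± 0.804. By counts without length, Grik5 had 45.2% ± 1.75 and Grik3 28.0% ± 1.66, and with the exon union Grik5 had 58.8% ± 1.79. Grik5 was thus the largest part on each scale, and above 50% on the 2 scales per length.

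The high-affinity subunits together exceeded the low-affinity ones. Grik4 and Grik5 summed to 48.9 ± 1.98 RPKM, against 29.4 ± 1.76 for Grik1, Grik2 and Grik3, a ratio of 1.67-fold (log2 ratio 0.74 ± 0.10), higher in 5 of 5 animals (exact sign-flip p = 0.063, the smallest possible, and 0.063 adjusted over 4 sums). The log2 ratio was 0.56 in animal 2 and 0.73 to 0.81 in the others. By counts without length the log2 ratio was 0.18, and with the exon union 1.07. Neto1 and Neto2 summed to 38.8 ± 0.926 RPKM, against 78.3 ± 2.67 for the 5 subunits (log2 ratio -1.01 ± 0.056, lower in 5 of 5 animals, exact p = 0.063). Without length that log2 ratio was -1.51, and with the exon union -1.57. Bulk RNA does not show whether subunits are made in the same cells, and here fewer cells of a type and less RNA per cell cannot be told apart.

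Kainate subunits were the third of the 4 families of ionotropic glutamate receptors by summed level. AMPA receptors carry most fast excitatory transmission, NMDA receptors admit calcium when glutamate meets a depolarized membrane, and delta receptors act mainly as synaptic organizers. The kainate share of the summed RPKM of all 18 subunit genes was 20.2% ± 0.502, with 49.1% ± 1.38 for AMPA, 26.4% ± 0.963 for NMDA and 4.29% ± 0.191 for delta subunits. The kainate sum was 78.3 ± 2.67 RPKM, against 190 ± 8.71 for the 4 AMPA subunits (log2 ratio -1.28 ± 0.076, lower in 5 of 5 animals, exact sign-flip p = 0.063, the smallest possible). Animal 1 had the least negative value of this ratio, -1.15, and the other animals -1.29 to -1.35. Against the 7 NMDA subunits (102 ± 3.92 RPKM) the log2 ratio was -0.38 ± 0.019, again lower in 5 of 5 animals (exact p = 0.063). It was -1.61 without length and -0.47 with the exon union, and for AMPA -1.78 and -1.39.

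**Figure D3:**
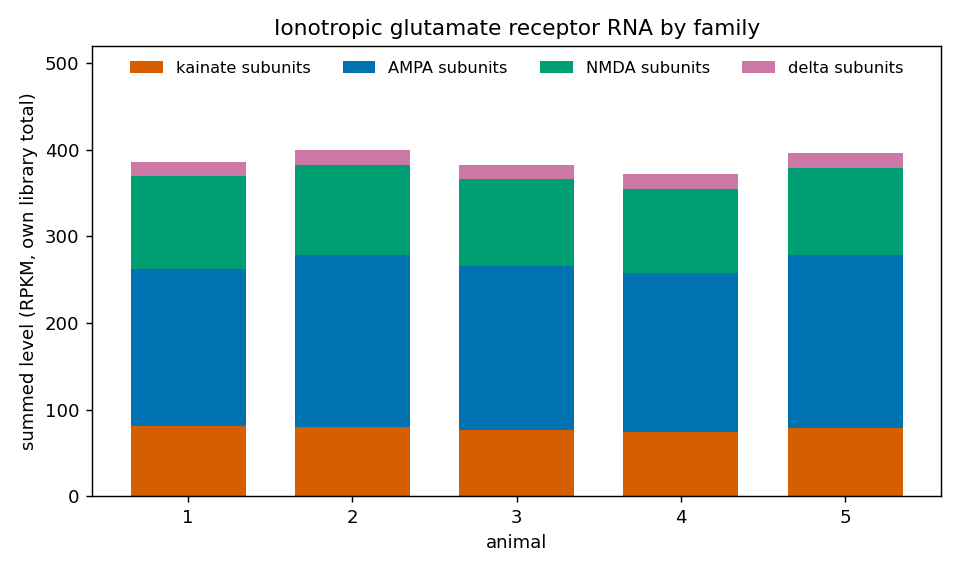
Summed RPKM of the kainate, AMPA, NMDA and delta subunits in each animal, stacked from 0. The kainate part runs from 74.5 in animal 4 to 81.3 in animal 1, below the AMPA and NMDA parts and above the delta part in all 5 animals.

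Single subunits placed the family among these receptors as follows. Grik5 (42.5 RPKM) was above Grin1, the obligatory NMDA subunit and the highest of its family (34.5 ± 1.94). It lay below Gria1, the highest AMPA subunit (99.2 ± 3.78). By mean count per library, without gene length, Grik5 (3118 counts) was below Grin1 (4761), and the highest genes were Grin2b (9997) in the NMDA and Gria2 (9742) in the AMPA family. Grik1, the lowest kainate subunit (5.00), was below Gria4, the lowest AMPA subunit (21.8 ± 1.32), but above Grin3b, the lowest NMDA subunit (0.144 ± 0.0627).

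The brains differed little in these RNAs, and no family gene was called as varying more or less than genes of like abundance. The test sets each gene's spread between animals, estimated by edgeR as a quasi-dispersion, against the trend over abundance, and a gene is called at an adjusted p below 0.05. In the upper direction 0 of the 7 genes were called, against 45 of 14770 genes tested (0.305%), and at an unadjusted p below 0.05 it was 1, Grik3, against 802 of all genes (5.43%). In the lower direction 0 of the 7 were called, against 0% of all genes, and 1, Neto2, at an unadjusted p below 0.05, against 739 of all (5.00%). limma also called 0 of the 7 in either direction, and so did DESeq2's dispersion outliers in the upper direction, the only one scored for them. The median TMM-scaled range between animals was 1.13-fold for the 7 genes and 1.19-fold for all genes tested, which is not matched for abundance. The median ratio to the trend, which takes abundance into account, was 1.21 for the 7 genes and 0.875 for all genes tested.

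Grik3 stood highest in this test and Neto2 lowest. The spread of Grik3 was 3.35 times the trend, higher than for 95.7% of genes tested (edgeR, adjusted p = 0.852, unadjusted p = 0.0371). Its levels were highest in animals 1 and 2 (16.2 and 16.7 RPKM) and lowest in animal 5 (13.6), a range of 1.22-fold in RPKM and 1.21-fold after TMM scaling. Grik1 had the widest TMM-scaled range, 1.37-fold or 1.24-fold without animal 2, and a spread of 2.32 times the trend (adjusted p = 0.968). Neto2 ranged 1.04-fold, with 0.145 times the trend, and 3.71% of genes tested had a lower ratio (lower direction, adjusted p = 0.987, unadjusted p = 0.0373). Ratios were 1.46 for Grik5, 1.21 for Grik2, 1.11 for Neto1 and 0.561 for Grik4.

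**Figure D4:**
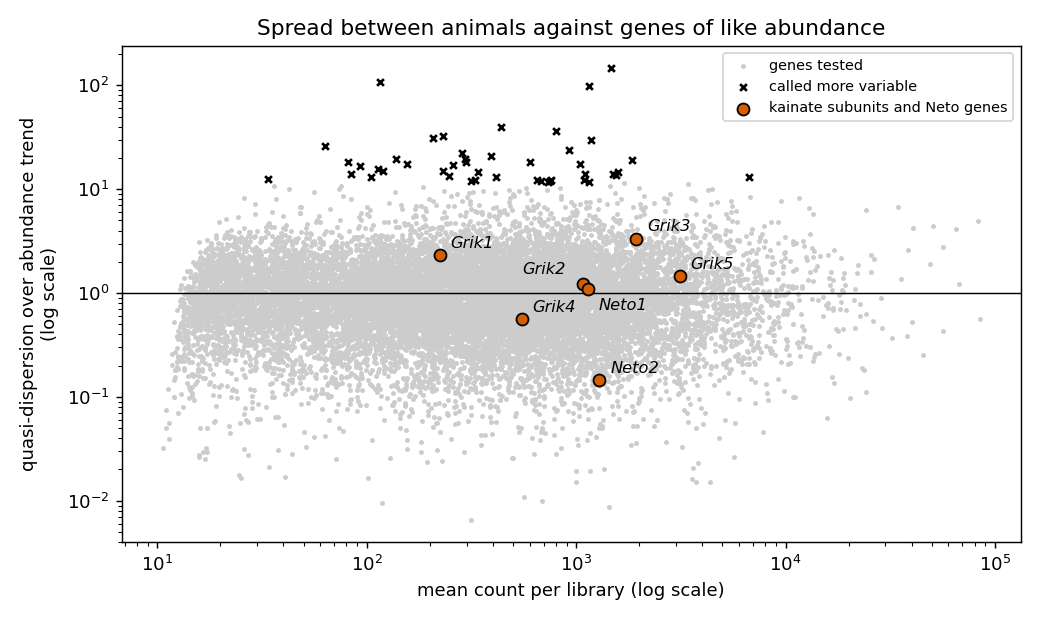
Quasi-dispersion over its abundance trend against mean count per library, both on log scales, for 14770 genes tested (grey), the 45 called more variable (crosses) and the 7 family genes (filled circles). The family genes lie within the grey cloud, from 0.145 for Neto2 to 3.35 for Grik3.

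The table the authors deposited shows larger differences between animals for several of these genes. In it Neto2 runs from 13.5 to 19.4 RPKM (CV 14%), against 1.72% when every library is scaled by its own total. For Grik3 the deposited CV is 14.3%, against 8.33%, and for Grik1 21.1%, against 13.3%. For Grik2 it is 3.50% in the deposited table and 5.92% with own totals. There, 80% of all entries rest on the total of a library other than their own, and the totals differ by up to 1.18-fold.

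The small differences between animals did not run in 1 direction across the family. On the TMM-scaled log2 CPM scale, 4 of the 7 genes lay above their own mean in animals 1, 2 and 5, 3 in animal 3 and 1 in animal 4. Animal 2 had the highest value of Grik1, Grik3 and Grik4 (deviations of 0.24, 0.12 and 0.076). Animal 4 had the lowest value of Grik2, Grik4 and Grik5 (-0.076, -0.068 and -0.069), and its only gene above the mean was Neto2 (0.025). Animal 5 was highest for Grik2 and Neto1 (0.098 and 0.10) and lowest for Grik3 and Neto2 (-0.15 and -0.022). Grik1 and Grik3, both high in animal 2, thus parted in animal 5, where Grik1 had 0.11 and Grik3 -0.15.

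**Figure D5:**
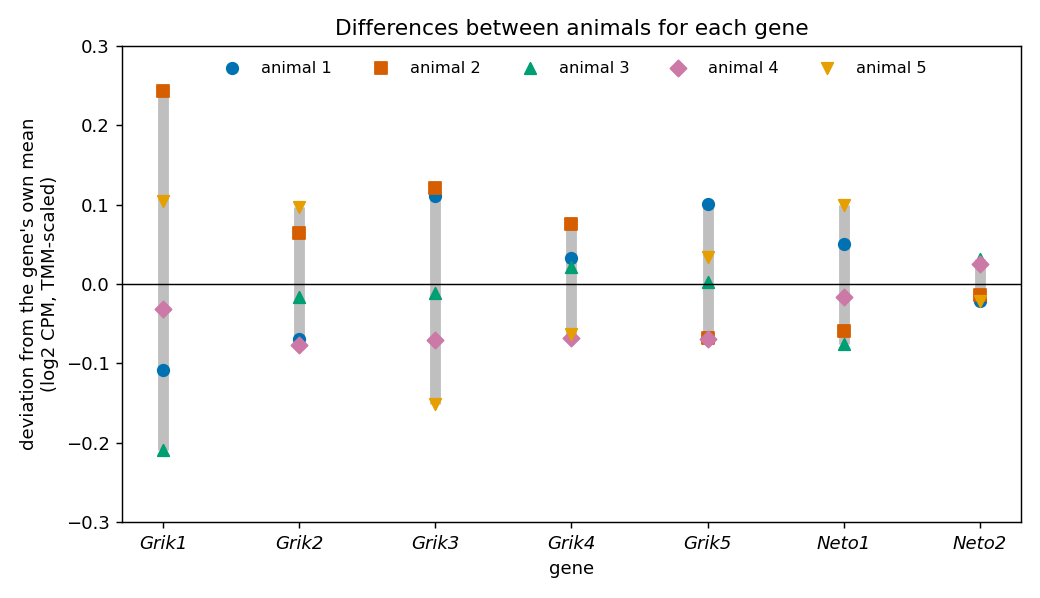
Deviation of each animal from the gene's own mean in TMM-scaled log2 CPM, 1 point per animal, with a grey bar over the range. Grik1 spans -0.21 to 0.24 and Neto2 -0.022 to 0.031, and no animal is highest or lowest for all 7 genes.

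Within the family, Grik5 and Neto1 had the most alike pattern over the 5 libraries, with a root mean square difference of 0.056 log2 between their centred values, followed by Grik3 and Grik4 with 0.059. Of 11682 candidate genes with a mean CPM of at least 5, 8.52% were nearer to Neto1 than Grik5 was and 11.4% nearer to Grik5 than Neto1 was. For the other pair, 2.20% were nearer to Grik3 than Grik4 was and 14.2% nearer to Grik4 than Grik3 was. Nearest of all to Grik2 was Gria2 (0.0065), the AMPA subunit that limits calcium entry, and then Timm44 (0.0089), a gene of mitochondrial protein import. Grik1 was nearest to Hdac1 (0.022) and Tspan18 (0.025), Grik3 to Chst8 (0.013) and Elfn1 (0.017), and Grik4 to Prr36 (0.0088) and Dhps (0.0099). For Grik5 the nearest were Nudt9 (0.0094) and Ubl7 (0.010), for Neto1 Coro1a (0.012) and Mat2b (0.015) and for Neto2 Tmod2 (0.0048) and Hyou1 (0.0053). With 5 libraries many genes come close: 5507 of the candidates lay within 0.1 of Grik2 and 275 within 0.1 of Grik1.

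Proteins that place, anchor or modify kainate receptors were well represented, and none of their genes was called as variable. Of 19 measured genes of this list, 0 were called in either direction by edgeR (background 0.305% upward and 0% downward). At an unadjusted p below 0.05 it was 2 in the upper direction, C1ql3 and Kif17, against 5.43% of all genes tested. The median ratio to the trend was 0.972, against 0.875 over all genes tested. The highest levels were those of Dlg4 (163 ± 5.91 RPKM), which encodes the postsynaptic scaffold PSD-95, Ctnnb1 (106 ± 5.14), which encodes beta-catenin of the cadherin complex, and Dlg3 (39.8 ± 1.0), another scaffold of the PSD-95 family. Each of these means but that of Dlg3 was above that of Grik5. These levels rest on the gene lengths of the authors. The exon union is 13251 bases for Dlg4 and 5192 for Ctnnb1, and levels with it are not reported here. By mean count per library Dlg4 had 11510, Ctnnb1 7676 and Dlg3 3308, the last below Dlg2 with 6832. C1ql3, a secreted protein of the C1q family found at mossy fibre synapses, had 13.6, 16.2, 17.2, 16.7 and 18.5 RPKM in animals 1 to 5 (adjusted p = 0.812). Kif17, a dendritic motor, had 6.52 RPKM in animal 4 and 7.85 to 8.86 in the others (adjusted p = 0.859).

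The enzymes that edit RNA bases were measured alongside the sites printed above. Adarb1, which encodes ADAR2, had 30.5 ± 0.857 RPKM and Adar, which encodes ADAR1, 21.4 ± 1.22 (1.43-fold, log2 ratio 0.51 ± 0.087, higher in 5 of 5 animals, exact sign-flip p = 0.063). Adarb2, whose product has no known editing activity, had 2.64 ± 0.172. Of the 3 genes, 0 were called as variable in either direction, also at an unadjusted p below 0.05 in the upper one, where the shares over all genes tested were 0.305% adjusted and 5.43% unadjusted.

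Markers of neurons and of other brain cell types were also read, none of them at 0, although some were too low to test. Neuron markers summed to 590 to 632 RPKM (3 of 3 genes), excitatory neuron markers to 742 to 844 (4 of 4) and inhibitory neuron markers to 433 to 493 (6 of 6), with Pvalb called as variable. The inhibitory sum was lowest in animal 2. Dentate granule cell markers summed to 11.9 to 14.1 (3 of 3 genes) and CA3 markers to 28.2 to 30.5 (3 of 3), of which Iyd was too low to test. Cerebellar neuron markers summed to 16.2 RPKM in animal 4, 6.44 in animal 5 and 9.08 to 10.3 in the other animals (4 of 4 genes measured). Of these, Cbln1 was called as variable, whereas Gabra6, Pcp2 and Cbln3 were too low to test, the lowest being Cbln3 with 0.277. Pvalb and Cbln1 were the only markers called in the upper direction, against 0.305% of all genes tested. Oligodendrocyte markers summed to 826 in animal 4, against 662 to 696 in the others (3 of 3). Astrocyte markers summed to 561 to 614 (3 of 3), oligodendrocyte precursor markers to 10.7 to 12.0 (2 of 2) and microglial markers to 73.2 to 78.0 (3 of 3). Endothelial markers summed to 26.2 to 36.4 (2 of 2) and choroid plexus markers to 453 to 498.6 (2 of 2). The choroid plexus sum was nearly all Ttr, since Kl had a mean of 3.05. The part of the differences between animals in these marker sums in the values of the family genes was not tested.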

How the data were processed

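RNA from right hemispheres of C57BL/6 males was sequenced in 5 libraries, 1 per sample. They are called animals, although the labels do not state that each is a separate mouse. Per the submitters' processing notes, the tools were CASAVA 1.7, STAR 2.4.1d and also featureCounts 1.4.6-p4, on build GRCm38. Details not given in the sources used here were the annotation release, the strand setting and how reads matching several places were treated. The deposited counts are whole reads per Ensembl gene (47729 genes), not normalized. The RPKM values deposited by the authors were set against these counts. Gene lengths were taken from each gene's highest entry, with the 5 totals applied in rotation down successive rows. With these lengths, rotation gave back each of the 117232 entries above 0 (100.0%, within 0.0011 RPKM plus a relative 0.0002), whereas each library's own total gave back 21.2%. These shares favour rotation by construction, so the implied length was also compared between libraries. Its median CV over 7363 genes was 0.0018% with rotation and 10.7% with own totals. RPKM was therefore recomputed from the counts with own totals and the gene length the tables imply. Libraries differed beyond counting noise in all 10 pairs (chi-square per degree of freedom 2.41 to 4.18, genes with at least 20 counts over the pair).

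The edgeR fit (4.0.16, R 4.3.3) took counts of all genes (filterByExpr, TMM, robust glmQLFit with legacy settings, intercept only). The quasi-dispersion of a gene over the abundance trend was set against F with 4 and 15.3 degrees of freedom, by a one-sided test per tail, with Benjamini-Hochberg adjustment over 14770 genes and a threshold of 0.05. The procedure was tested on simulated data. There, fold changes were put into a single library for each changed gene, and the outcome is not reported here. Within-animal log2 ratios used RPKM plus 0.1 for single genes and no added value for sums, with exact two-sided sign-flip tests over 32 sign patterns, adjusted over 21 pairs or 4 sums. Alternatives were DESeq2 1.42.0 size factors and dispersion outliers, no low-count filter, a prior that is not robust, limma 3.58.1 on log2 RPKM plus 0.1, other gene lengths, other added values, the deposited RPKM and leaving out each animal.

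Positions and symbols come from GENCODE M21 (GRCm38). Shared sequence was measured as the percentage of 50-base words, taken every 5 bases, found in the same sense in transcripts of other genes. Named are the 7 family genes, the highest and lowest AMPA and NMDA subunits (single delta subunits are not reported here), the 3 highest and any called gene of the partner and editing lists, and for each family gene the 2 genes nearest in pattern. The genes, lists and tests were chosen with earlier results of these data known. Of the partner list, 1 symbol (Klhl17) was not matched. Genes named outside this rule (C1ql3, Kif17, Cbln1, Pvalb and markers) were chosen after their values were seen. Counting CVs cover counting error only, since reads may be PCR copies of 1 molecule.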

Additional observations from a re-analysis of the deposited data

How the results depend on the processing

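The choice of gene length changed the comparisons between genes, and no other alternative turned an order. Without gene length the log2 ratio was -0.18 for Neto1 over Neto2, -0.76 for Neto1 over Grik3 and -0.58 for Neto2 over Grik3. With the exon union it was -0.62, -0.65 and -0.035 for these pairs and -0.17 for Grik2 over Grik4. The sums moved by more than 1 SD with both: 0.18 without length and 1.07 with the exon union for Grik4 and Grik5 over Grik1 to Grik3, -1.51 and -1.57 for both Neto genes over the subunits, -1.78 and -1.39 for kainate over AMPA, and -1.61 and -0.47 for kainate over NMDA. The number of pairs with 1 order stayed at 20 of 21 in all 10 alternatives run on it, among them the RPKM values as deposited and leaving out each animal. The exception was not the same pair throughout. By counts without length, Neto2 was below Grik3 in every animal. Neto1 was then below Grik2 in animal 2 (1156 against 1197 counts) and above it in the others. No family gene was called in any alternative of the variability test, of which DESeq2's dispersion outliers were scored in the upper direction only. The number of genes called over the whole table was 45 as reported. It was 249 without the filter on low counts and 19 when the prior was not made robust. DESeq2 marked 101 dispersion outliers, and limma called 10 on recomputed and 27 on deposited RPKM. Leaving out 1 animal gave 18 to 44 (26 without animal 3 and 18 without animal 5). The cause of these differences was not tested. Depth limits Grik1 most, at 190 to 278 reads per library.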
